A study of Homo sapiens with 9 samples.

Results

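The genes described here were those whose expression moved to the same side in both metastatic sub-populations of MDA-MB-231 cells, the lung-tropic LM2 and the brain-tropic BrM2, relative to the parental cells (Par). A gene was a member of this common program where every LM2 and every BrM2 library was above every Par library in CPM, the gene's counts relative to the TMM-scaled size of the library, or every library was below. Of 13038 genes tested, 1859 were members (14.3%), with 860 higher (6.6%) and 999 lower (7.66%) in both sub-populations. The question was what breast cancer cells selected for colonisation of different organs share.

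MDA-MB-231 is an established human breast cancer line of the claudin-low type, a class with few epithelial junction genes and much vimentin. LM2 and BrM2 were obtained from it by selection in mice for growth in lung and in brain, and each is a single derived line, so that a change shared by both describes these 2 lines. RNA was sequenced from 3 biological replicates per line, grown in culture and harvested at different passages, and no group received a treatment. The 3 Par, 3 LM2 and 3 BrM2 libraries held 14371858 to 24511786 counts on genes. Replicates of the same number shared part of their deviation from the line means (correlation of 0.23 to 0.90 across genes, in all 9 pairs), and the number entered the model as a block. Libraries numbered 2 and 3 also correlated with each other across lines (0.39 to 0.80), so these values do not show that numbers 2 and 3 are paired. Replicate 1 of the 3 lines stood apart from the others. Without it, 5473 genes met the rule, among them 1856 of the 1859 members. Leaving out libraries makes the rule easier to meet, so members stay members almost by construction. The 8 markers of the line summed to 5343 to 6893 CPM in every library, against 9.84 to 24.5 CPM for 8 luminal markers and 3.17 to 6.31 CPM for 9 markers of lung epithelium. Markers of neurons and glia summed to 184 to 191 CPM in Par, 107 to 128 in LM2 and 144 to 169 in BrM2, and the 8 fibroblast markers to 59.8 to 68.6 CPM in Par, 48.5 to 60.1 in LM2 and 11.2 to 20.7 in BrM2. The part of these marker levels in the results was not tested. In such bulk RNA, fewer cells that express a gene and less RNA per cell cannot be told apart.

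Metastasis draws on several kinds of genes. Proteases and matrix proteins open or rebuild the tissue around a tumour cell, cytokines and growth factors act on cells of the host, and adhesion and guidance receptors, many of them first described in neurons, connect a cell to its neighbours. Many interferon-stimulated genes act against viruses, and the MHC genes display peptides to the immune system. Synthesis of serine and of one-carbon units supplies nucleotides and methyl groups.

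Among the members were higher levels of the collagenase MMP1, the proteoglycan SRGN, the TGF-beta co-receptor ENG, the serine synthesis enzyme PHGDH and all 4 teneurins, and lower levels of 14 interferon-stimulated genes, 8 antigen presentation genes, the death ligand TNFSF10 and the epithelial genes KRT7 and CLDN4. The common change is given as the log2 difference between the mean of LM2 and BrM2 and Par. Its median was 0.89 over the higher members and -1.15 over the lower ones, against -0.0256 over all genes tested. A change of at least 1 was measured for 375 higher and 575 lower members, and of at least 3 for 105 and 87. Since these same values chose the members, they are a description and carry no p. In the model over all genes, 17.5% of genes passed an adjusted p of 0.05 as higher and 22.3% as lower, and 3410 of the 5198 genes past that threshold had overlapping libraries and were not members. HEATR3 and ARMC10 lay just inside the rule, with common changes of 0.34 and -0.41. LSM12 and ZNF692, with 0.34 and -0.20, lay just outside.

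**Figure D1:**
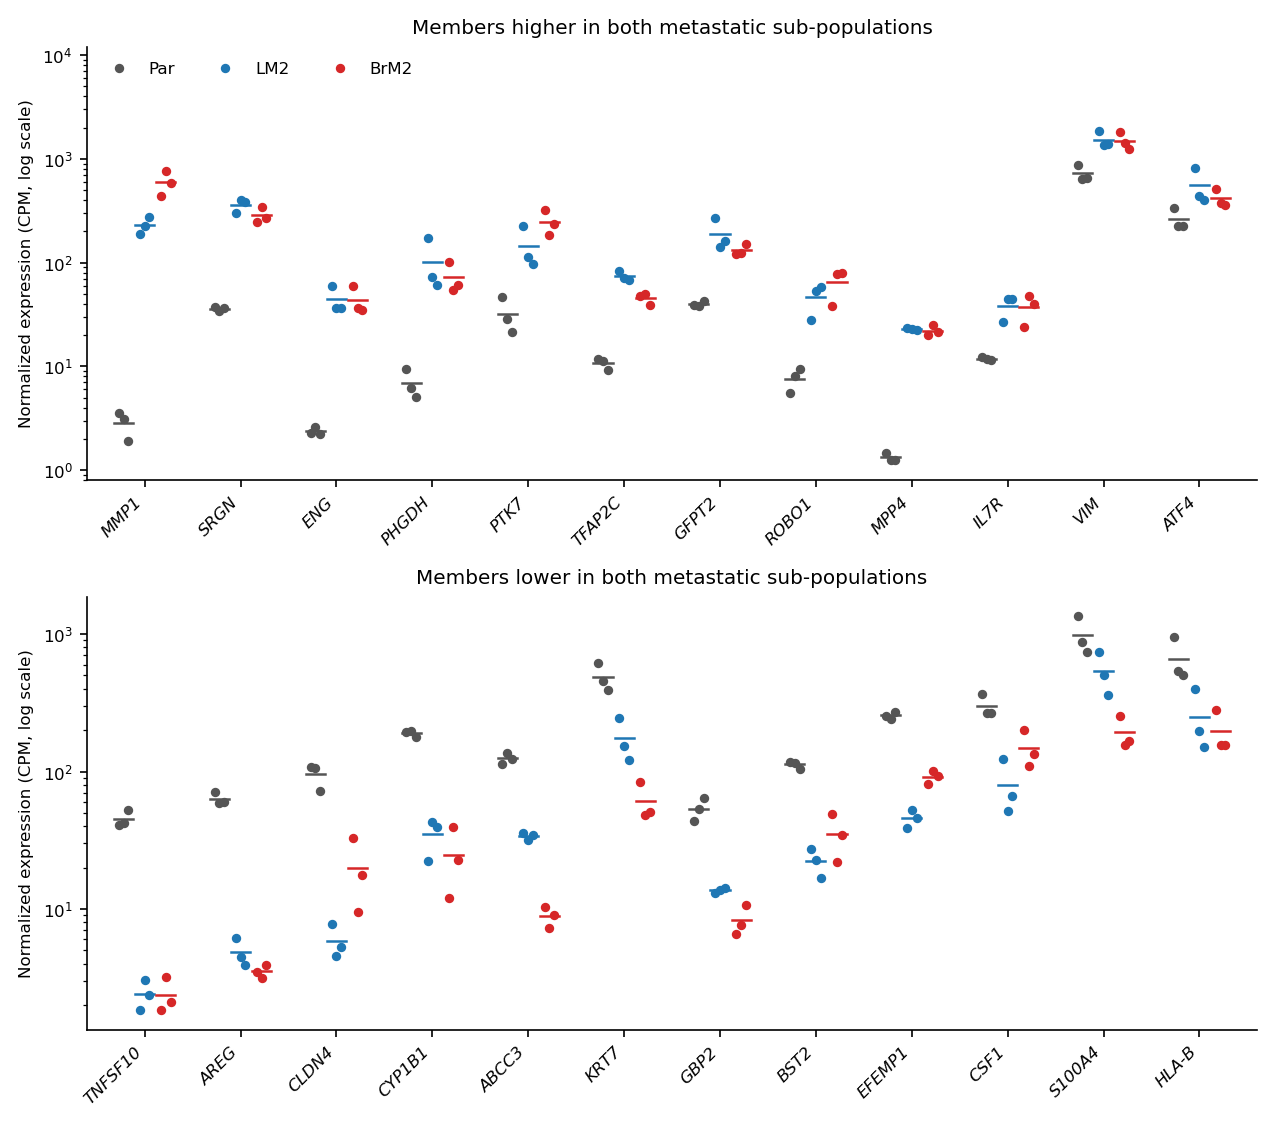
Normalized expression in CPM on a log axis for 12 members higher and 12 members lower in both sub-populations. Each point is a library (3 per line) and each bar is the mean of 3. In every gene the 6 metastatic libraries lie on the same side of the 3 Par libraries. Common changes run from 7.01 in MMP1 to -4.26 in TNFSF10.

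Protease and matrix genes are given first. MMP1, the interstitial collagenase encoded at chr11:102789919-102798160 (GRCh38.p14), was at 3.57, 3.1 and 1.93 CPM in Par, 189, 226 and 274 in LM2, and 439, 757 and 584 in BrM2. No library came near the Par range, and the common change was 7.01 (95% interval 6.42 to 7.6). BrM2 exceeded LM2 by 1.35 (95% interval 0.90 to 1.79) (edgeR, adjusted p = 0.00056). Its neighbour MMP3, stromelysin, had at most 1 count in any Par library and reached 1.99 to 2.41 CPM in LM2 and 1.44 to 3.03 CPM in BrM2. SPARC, a secreted collagen-binding glycoprotein, was at 2.0, 2.32 and 2.08 CPM in Par, 653, 423 and 366 in LM2, and 32, 13.7 and 12.8 in BrM2. Both sub-populations were above Par, but LM2 lay far above BrM2, with a difference of -4.69 (95% interval -5.17 to -4.21) (edgeR, adjusted p = 1.78e-07). FKBP10, a chaperone of collagen folding, was at 0.315, 0.774 and 0.432 CPM in Par, 166, 95.8 and 77.2 in LM2, and 42.9, 19.3 and 20.5 in BrM2. The laminin chain LAMA1 rose about equally (3.16 in LM2 and 3.46 in BrM2), and LAMA4 more in LM2 (3.77 against 1.33).

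Lower matrix genes included COL1A2, a chain of type I collagen, at 32.8, 25.2 and 22.4 CPM in Par, 6.41, 4.78 and 5.48 in LM2, and 0, 0.0441 and 0 in BrM2. It was near absent in BrM2 and retained in LM2 at a level below every Par library. EFEMP1, a fibulin, had a common change of -2.0 (95% interval -2.23 to -1.78), and ADAMTS14, which trims procollagen, of -4.44 (95% interval -5.06 to -3.81). CEMIP, which takes part in breaking down hyaluronan, was at 335, 244 and 258 CPM in Par, 21.2, 18 and 14.7 in LM2, and 89.1, 102 and 92.6 in BrM2, and MUC4, a membrane mucin, at 6.2, 10.2 and 11.8 CPM in Par, 3.03, 4.86 and 3.26 in LM2, and 0.148, 0.0441 and 0.0959 in BrM2. Of 21 collagens tested, 2 were higher and 5 lower members, with a median change of -0.0317. Of 19 matrix proteases and inhibitors, 2 were higher and 4 lower, and of 14 integrins none was a member, with 2 past the threshold as higher and 4 as lower.

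Genes linked by earlier work to lung or brain colonisation were among the members in both sub-populations. Of 19 lung genes, 6 were higher and 2 lower members, and of 15 brain genes, 5 were higher and 1 lower. Over all tested genes 6.6% were higher and 7.66% lower members. Past the threshold were 13 lung genes as higher and 6 as lower, and 9 brain genes as higher and 3 as lower. The lower lung members changed by -2.11 and -0.36, and the latter gene was also the lower brain member. The genes described next are higher members. These lists come from studies of the same sub-populations, so their direction is not independent evidence. IL13RA2, a receptor that binds interleukin 13 without the usual signalling, had 0 counts in all Par libraries. It was at 4.72 to 13.8 CPM in LM2, at least 66.3-fold higher than Par, and at 2.8 to 6.4 CPM in BrM2, at least 29.4-fold higher, with Par set to 3 counts per library. ROBO1, a receptor for SLIT guidance cues, was at 5.52, 7.99 and 9.35 CPM in Par, 28.1, 53.1 and 57.7 in LM2, and 38.2, 77 and 80.2 in BrM2. The brain gene ST6GALNAC5, a sialyltransferase, was at 0.473, 1.94 and 1.93 CPM in Par, 2.29, 3.35 and 3.72 in LM2, and 9.08, 12.8 and 10.7 in BrM2, and was thus also above Par in every LM2 library, though by less. GJA1, the gap junction protein connexin 43, rose by 1.5 in LM2 and 2.0 in BrM2. SERPINB2, an inhibitor of plasminogen activators, was at 0, 0.145 and 0.275 CPM in Par, 1.09, 0.612 and 0.613 in LM2, and 6.94, 6.71 and 3.21 in BrM2. PTGS2, the inducible cyclooxygenase, was at 0.105, 0.484 and 1.53 CPM in Par, 2.58, 4.0 and 3.06 in LM2, and 2.73, 2.78 and 2.49 in BrM2, and CXCL1, a chemokine for neutrophils, had a common change of 1.35 (95% interval 0.75 to 1.94).

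Among cytokines and their receptors, the 27 tested genes held 7 higher and 8 lower members, so that the list split. On the higher side stood IL1B, a pro-inflammatory cytokine, at 0.263, 0.242 and 0.55 CPM in Par, 39.4, 33.3 and 24.3 in LM2, and 7.31, 5.61 and 3.36 in BrM2. The LM2 libraries were above the BrM2 libraries, with a difference of -2.6 (95% interval -3.12 to -2.09) (edgeR, adjusted p = 1.75e-05). IL1A, its relative, had a common change of 1.73 (95% interval 0.91 to 2.54), the receptor subunit IL6R of 3.96 (95% interval 3.32 to 4.6), and IL7R of 1.63 (95% interval 1.24 to 2.02). IL7R was at 12.2, 11.9 and 11.4 CPM in Par, 26.8, 44.4 and 44.5 in LM2, and 23.8, 47.9 and 40.4 in BrM2, nearly the same in both sub-populations. PTGER4, a receptor for prostaglandin E2, had a change of 0.40 in LM2 and of 1.43 in BrM2.

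On the lower side, TNFSF10 encodes TRAIL, a ligand that triggers cell death. It was at 40.9, 42.3 and 52.8 CPM in Par, 1.84, 3.02 and 2.38 in LM2, and 1.84, 3.18 and 2.11 in BrM2. The 2 sub-populations were alike within a narrow range, with BrM2 minus LM2 of -0.01 (95% interval -0.50 to 0.48). CSF1, a growth factor of macrophages, was at 367, 265 and 265 CPM in Par, 124, 51.3 and 65.9 in LM2, and 202, 110.0 and 134 in BrM2. IL1R1, the receptor for interleukin 1, had a common change of -1.65 (95% interval -1.95 to -1.35), IL32 of -2.74 (95% interval -3.29 to -2.2), the membrane chemokines CX3CL1 and CXCL16 of -4.25 (95% interval -4.71 to -3.8) and -2.34 (95% interval -3.0 to -1.69), and the scavenger receptor ACKR3 of -5.51 (95% interval -6.65 to -4.38), which became -8.47 without replicate 1. ACKR3 had 87 to 102 counts per Par library and 0 to 8 in the others. Of 11 chemokines and receptors tested, CXCL1 was the only higher member and these 3 were the lower ones.

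Of 18 growth factors and receptors of vessels, 6 were higher and 3 lower members, with 8 past the threshold as higher and 5 as lower and a median change of 0.23. The lower members were VEGFA, the main vascular growth factor, with a common change of -0.47, NRP2, a co-receptor for VEGF and semaphorins, with -0.94, and ANGPTL2, an angiopoietin-like protein, with -2.25. Among the higher members, PDGFD was at 0, 0.0484 and 0.196 CPM in Par, 1.44, 3.27 and 3.75 in LM2, and 1.99, 5.03 and 5.18 in BrM2. PDGFB was at 0.525, 0.29 and 0.0786 CPM in Par, 5.17, 3.35 and 1.8 in LM2, and 0.959, 0.662 and 0.527 in BrM2, and PDGFA at 7.83, 7.31 and 8.6 CPM in Par, 21.8, 13.6 and 17.2 in LM2, and 19.3, 12.6 and 19.4 in BrM2. All 3 are ligands of the platelet-derived growth factor receptors, and of these PDGFA was alike in both sub-populations, with BrM2 minus LM2 of -0.04 (95% interval -0.39 to 0.31). FGF1, a fibroblast growth factor, rose by 1.31 (95% interval 0.93 to 1.69), PGF, of the VEGF family, by 1.42 (95% interval 1.01 to 1.83), and EDN1, the vasoconstrictor endothelin 1, by 1.28 (95% interval 0.92 to 1.64). ADM, a vasodilator peptide, was at 17, 20.6 and 13 CPM in Par, 141, 103 and 83.6 in LM2, and 162, 63.7 and 91.3 in BrM2. ENG, which binds TGF-beta family ligands, was at 2.26, 2.61 and 2.24 CPM in Par, 58.9, 36.9 and 36.6 in LM2, and 59.2, 36.7 and 34.7 in BrM2. Its replicates 1 were highest in each sub-population, and LM2 and BrM2 differed by only -0.02 (95% interval -0.37 to 0.32). AREG, a ligand of the EGF receptor, went the other way, at 70.7, 58.6 and 60.4 CPM in Par, 6.16, 4.49 and 3.91 in LM2, and 3.47, 3.13 and 3.93 in BrM2, although 96.3% of its 31-base stretches also occur in another gene, so its reads could be assigned either way. BTC, a ligand of the same receptor, changed by -2.33 (95% interval -2.92 to -1.74). The list of EGF family ligands and ERBB receptors split, with 2 higher and 2 lower members of 11 tested. The higher ones changed by 2.75 and 0.50, and 5 genes were past the threshold as higher and 5 as lower.

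Of 30 genes of the WNT pathway, 5 were higher and 4 lower members. Over the list 6 were past the threshold as higher and 10 as lower, with a median change of -0.14. WNT5A, a ligand of the non-canonical branch, was at 0, 0.145 and 0.275 CPM in Par, 0.844, 1.22 and 1.69 in LM2, and 3.47, 8.34 and 7.91 in BrM2. The receptor FZD8 was higher by 2.2 (95% interval 1.78 to 2.62) and the nuclear factor LEF1 by 1.67 (95% interval 1.27 to 2.07). RNF43, a ligase that removes WNT receptors from the surface, changed by -2.29 (95% interval -2.91 to -1.67), with 68.2% of its stretches shared with another gene. The other lower members of the list, a ligand and receptors, changed by -2.01, -1.53 and -1.16. The remaining higher members changed by 0.72 and 1.41. PTK7, a pseudokinase co-receptor that was not on this list, was at 47, 28.3 and 21.5 CPM in Par, 224, 113 and 97.2 in LM2, and 324, 183 and 238 in BrM2.

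Adhesion molecules of the nervous system that were members were all on the higher side. Of 21 tested, 7 were higher and 0 lower members, against 6.6% higher and 7.66% lower over all genes. Over the whole list 10 were past the threshold as higher and 4 as lower, with a median change of 0.67. Over all genes 17.5% were past it as higher and 22.3% as lower. With plain library totals 6 were higher and 2 lower members, and without replicate 1 the counts were 9 and 2. The teneurins, large transmembrane proteins that bind latrophilins, were all members. TENM1 was at 0.105, 0.242 and 0.275 CPM in Par, 5.51, 16.3 and 15.8 in LM2, and 8.04, 22.5 and 22.5 in BrM2. TENM3 was at 25.1, 40 and 44.7 CPM in Par, 63.2, 81.8 and 94.9 in LM2, and 112, 152 and 167 in BrM2. TENM2 had at most 2 counts per Par library and lay at 0.298 to 1.19 CPM in LM2 and 11.1 to 13.9 CPM in BrM2. TENM4 had 0 counts in Par, lay at 0.153 to 0.367 CPM in LM2, and at 3.66 to 5.61 CPM was at least 30.6-fold higher in BrM2. NRCAM was higher by 1.84 (95% interval 1.32 to 2.36), CNTNAP1 by 0.70 (95% interval 0.45 to 0.95) and SLITRK5 by 1.48 (95% interval 1.15 to 1.8). The guidance ligand SLIT2 was at 24.6, 24.1 and 24 CPM in Par, 44.5, 66.2 and 67.6 in LM2, and 43.7, 70.5 and 59.7 in BrM2, and its receptor ROBO2, with at most 1 count per Par library, at 0.0994 to 0.49 CPM in LM2 and 4.06 to 11.6 CPM in BrM2. Axon guidance genes as a list did not lean the same way, with 5 higher and 9 lower members of 43. SEMA5A, a semaphorin, changed by -3.5 (95% interval -3.96 to -3.05) and EPHB3, an ephrin receptor, by -2.38 (95% interval -2.84 to -1.93). Ion channel and synaptic exocytosis genes went both ways, with 7 higher and 5 lower members of 29. The lower ones included STX1A and SYT12, which act in vesicle fusion, and the glutamate receptor subunit GRIK2, with common changes of -0.92, -2.81 and -1.28. The higher ones included RIMS2, which organises vesicle release, at 3.89, 3.92 and 4.4 CPM in Par, 8.1, 17.1 and 16.7 in LM2, and 22.8, 58.4 and 45.7 in BrM2, and AMPH, amphiphysin, at 0, 0.339 and 0.157 CPM in Par, 24, 17.8 and 18.7 in LM2, and 74.5, 66.8 and 73.9 in BrM2.

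The serine and one-carbon genes among the members were 6, and all 6 were higher. Of 13 tested, 10 were past the threshold as higher and 0 as lower, with a median change of 0.62. PHGDH, the first enzyme of serine synthesis from glucose, was at 9.4, 6.2 and 5.03 CPM in Par, 172, 73.1 and 61.3 in LM2, and 101, 54.6 and 61.4 in BrM2. Every metastatic library was several-fold above Par, on the log2 scale by 3.8 in LM2 and 3.4 in BrM2. PSAT1, the next enzyme, was at 118, 96.5 and 101 CPM in Par, 277, 261 and 239 in LM2, and 148, 143 and 157 in BrM2. MTHFD2 rose by 0.62 (95% interval 0.37 to 0.86), MTHFD1L by 0.67 (95% interval 0.44 to 0.90), MTHFD1 by 0.41 (95% interval 0.20 to 0.62) and the transporter SLC1A4 by 0.92 (95% interval 0.64 to 1.2). ATF4, a transcription factor known to induce serine synthesis enzymes, was at 333, 227 and 225 CPM in Par, 825, 439 and 406 in LM2, and 512, 374 and 361 in BrM2. It was the only higher member of 31 tested genes of the integrated stress and unfolded protein response, against 3 lower members. Of those 31, 4 were past the threshold as higher and 6 as lower. A part of ATF4 in the serine genes was not tested. The serine and one-carbon list had 10 higher and 0 lower calls without replicate 1 and with either other scaling, and 3 and 0 without the replicate block. GFPT2, of the hexosamine pathway, was at 39.2, 37.9 and 42.3 CPM in Par, 267, 141 and 161 in LM2, and 122, 123 and 151 in BrM2. AOX1, aldehyde oxidase, rose more in BrM2 (2.65) than in LM2 (1.17).

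Interferon-stimulated genes among the members were all on the lower side. Of 42 tested, 0 were higher and 14 lower members, against 7.66% lower of all genes, and over the list 0 were past the threshold as higher and 24 as lower, with a median of -0.63. GBP2, a guanylate-binding protein, was at 43.6, 53 and 64.2 CPM in Par, 13.1, 13.7 and 14.3 in LM2, and 6.57, 7.64 and 10.6 in BrM2. BST2, tetherin, which holds virus particles at the surface, was at 118, 116 and 104 CPM in Par, 27.4, 22.8 and 16.7 in LM2, and 49.1, 21.9 and 34.4 in BrM2. IFI27 was at 50.3, 30.7 and 28.4 CPM in Par, 5.51, 3.47 and 2.22 in LM2, and 2.36, 0.486 and 1.39 in BrM2. RSAD2, viperin, was at 3.41, 2.27 and 2.67 CPM in Par, 0.0994, 0.245 and 0.153 in LM2, and 0, 0.177 and 0.0479 in BrM2, which is 0 to 6 counts in each metastatic library. IFIT1, which binds viral RNA, was at 67.3, 55.3 and 64.2 CPM in Par, 28.3, 29.5 and 26.6 in LM2, and 18.7, 20.4 and 26.6 in BrM2. IFITM1 differed little between the sub-populations, with BrM2 minus LM2 of -0.00071 (95% interval -0.35 to 0.34), as was IFIT3, with 0.0048 (95% interval -0.33 to 0.34). The common change was -1.33 (95% interval -1.6 to -1.05) for IFIT1, -0.94 (95% interval -1.22 to -0.65) for IFIT3, -0.96 (95% interval -1.26 to -0.66) for IFIT2 and -1.44 (95% interval -1.72 to -1.16) for IFITM1, of which 37.8% is shared with other genes. OAS2, an antiviral synthetase, GBP1, the RNA sensor IFIH1 and MX2 changed by -1.12, -1.04, -1.1 and -1.01, and HERC6 and the signalling factor STAT2 by -0.89 and -0.64. In HERC6 the change was -0.32 in LM2 and -1.46 in BrM2. Without replicate 1, 19 genes of the list were lower members and 1 was higher, and 20 were past the threshold as lower. Without the replicate block 11 were past it as lower and 0 as higher.

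**Figure D2:**
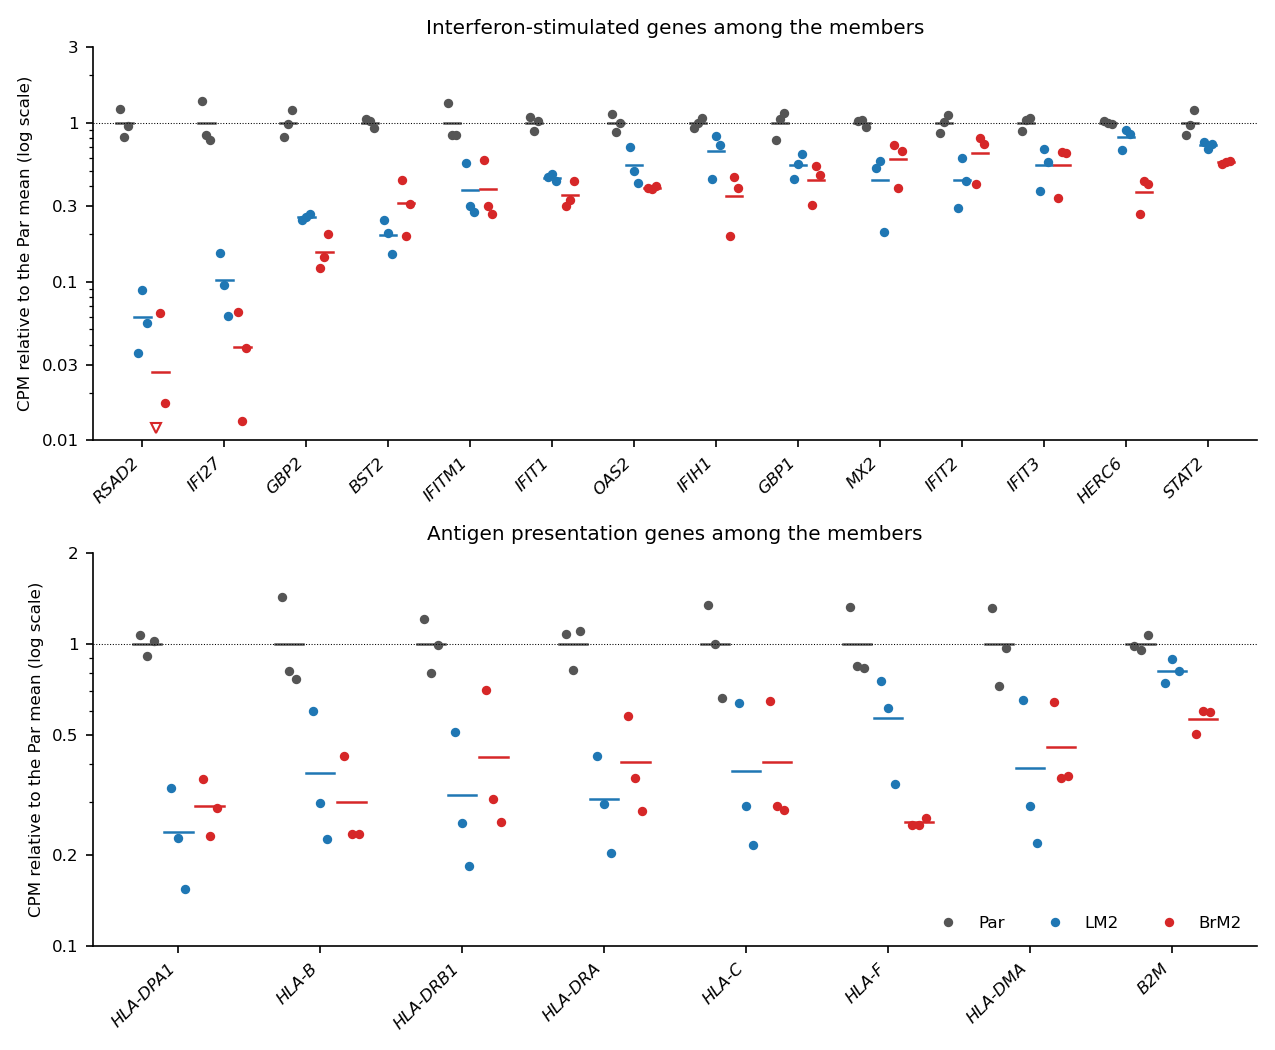
CPM relative to the mean of the 3 Par libraries, on a log axis, for the 14 interferon-stimulated and 8 antigen presentation members. Points are libraries, bars are means of 3 and the open triangle marks a library with 0 counts; all metastatic libraries lie below all Par libraries of the same gene, with common changes from -4.44 in RSAD2 to -0.56 in B2M.

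The promoters of 4 of these genes are shown because they hold the element through which the interferon-activated factor ISGF3 and the IRF family bind. The element was written as GAAANNGAA and searched on both strands, with overlapping matches counted separately, from 250 bases before to 50 after the RefSeq start. It was chosen after the values were seen. The 250 bases before the start are given 5′ to 3′ on the gene's strand, from RefSeq on GRCh38.p14, with matches on either strand in capitals.
BST2 (chr19:17405631-17405880, minus strand): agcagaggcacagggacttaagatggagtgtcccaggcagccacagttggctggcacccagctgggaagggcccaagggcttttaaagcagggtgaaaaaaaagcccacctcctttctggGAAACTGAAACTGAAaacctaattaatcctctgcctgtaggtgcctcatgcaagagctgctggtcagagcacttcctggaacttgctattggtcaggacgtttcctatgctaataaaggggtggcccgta
IFI27 (chr14:94110486-94110735, plus strand): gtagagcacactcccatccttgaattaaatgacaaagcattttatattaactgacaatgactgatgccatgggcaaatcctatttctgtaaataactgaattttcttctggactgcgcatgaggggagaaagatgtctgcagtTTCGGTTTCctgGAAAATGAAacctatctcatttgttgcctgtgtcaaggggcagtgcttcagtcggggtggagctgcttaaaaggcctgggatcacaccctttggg
IFIT1 (chr10:89392373-89392622, plus strand): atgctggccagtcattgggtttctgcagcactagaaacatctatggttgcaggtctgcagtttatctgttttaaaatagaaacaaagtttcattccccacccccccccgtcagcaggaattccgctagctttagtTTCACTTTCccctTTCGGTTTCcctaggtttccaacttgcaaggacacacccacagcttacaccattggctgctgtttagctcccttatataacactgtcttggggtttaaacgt
RSAD2 (chr2:6865635-6865884, plus strand): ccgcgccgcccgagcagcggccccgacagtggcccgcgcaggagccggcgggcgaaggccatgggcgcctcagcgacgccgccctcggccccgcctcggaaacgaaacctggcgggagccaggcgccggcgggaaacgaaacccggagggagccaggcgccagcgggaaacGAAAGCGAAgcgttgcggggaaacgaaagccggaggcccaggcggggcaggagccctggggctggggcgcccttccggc
Of the 14 lower interferon members, 10 had a promoter in the RefSeq table, and the element was in 8 of them. It was also in 15 of the 21 promoters of tested interferon genes that were not members (71.4%), in 8.29% of all 27305 promoters and in 6.5% of the 9752 promoters of tested genes. The lower members outside the list held it in 6.73% and the higher members in 6.02%. HERC6 and STAT2 were without a match in this window.

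Antigen presentation followed the same direction, with 8 lower and 0 higher members of 22 genes tested and 17 past the threshold as lower against 1 as higher. Over all genes 7.66% were lower members and 22.3% were past the threshold as lower. Apart from B2M, these members lie on chromosome 6 between 20 and 40 Mb (GRCh38.p14). That window held 30 lower and 3 higher members of 191 genes tested, and neighbouring genes are not independent. HLA-B, a class I heavy chain, was at 947, 538 and 508 CPM in Par, 399, 197 and 149.6 in LM2, and 283, 156 and 156 in BrM2. HLA-C was at 336, 249.9 and 165 CPM in Par, 159, 72.8 and 54.3 in LM2, and 162, 72.9 and 70.6 in BrM2, and B2M, the light chain of class I, at 904, 875 and 979.7 CPM in Par, 680.4, 820.1 and 746 in LM2, and 463, 549 and 547 in BrM2. In each line replicate 1 was highest for HLA-B, and within each replicate number both sub-populations were below Par. HLA genes share sequence, 36.8% of the stretches in HLA-B and 15.9% in HLA-C. Class II genes, which present peptides to helper T cells, were lower as well. HLA-DRA was at 119, 90.1 and 121 CPM in Par, 46.7, 32.3 and 22.3 in LM2, and 63.3, 39.5 and 30.7 in BrM2. HLA-DRB1 changed by -1.59 (95% interval -1.98 to -1.2), HLA-DPA1 by -1.96 (95% interval -2.31 to -1.6) and HLA-DMA by -1.32 (95% interval -1.67 to -0.96), with no difference between BrM2 and LM2 past the threshold in any of the 4. HLA-F, a class I-like gene, changed by -1.37 (95% interval -1.81 to -0.93). Without the replicate block, 6 genes of the list were past the threshold as lower and 0 as higher. APOBEC3G, a cytidine deaminase that restricts viruses, was on the other side at 5.88, 4.07 and 5.11 CPM in Par, 31.8, 21.5 and 20.3 in LM2, and 13.5, 10.3 and 12.2 in BrM2, and of the 4 tested genes of its family 1 was a member and all 4 were past the threshold as higher (2 without the replicate block).

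Some epithelial genes that remained in the parental line were lower in both sub-populations. KRT7, a simple epithelial keratin, was at 614, 459 and 390.2 CPM in Par, 247, 154 and 121 in LM2, and 83.5, 48.3 and 50.8 in BrM2. CLDN4, a tight junction claudin, was at 107, 106 and 72.7 CPM in Par, 7.75, 4.53 and 5.25 in LM2, and 32.7, 9.54 and 17.8 in BrM2. CLDN23 changed by -2.73 (95% interval -3.21 to -2.25), with 70.8% of its stretches shared with another gene, and the junction scaffold CGNL1 by -1.69 (95% interval -2.12 to -1.25). The epithelial factor ELF3 changed by -2.3 (95% interval -2.95 to -1.66). Of 9 keratins tested, 0 were higher and 1 was a lower member, with 0 past the threshold as higher and 6 as lower (2 without the replicate block). Of 16 tight junction genes, 0 were higher and 4 lower members, with 3 past the threshold as higher and 6 as lower. VIM, the mesenchymal filament protein, was at 882, 636 and 655 CPM in Par, 1875, 1356 and 1380.3 in LM2, and 1821, 1432 and 1253 in BrM2. BrM2 minus LM2 was only -0.03 (95% interval -0.27 to 0.20). S100A4, a calcium-binding protein abundant in mesenchymal cells, was nevertheless lower, at 1349, 882 and 745 CPM in Par, 743, 504 and 361 in LM2, and 255, 157 and 167 in BrM2, and S100A3 changed by -1.8 (95% interval -2.23 to -1.38). Of 9 S100 genes tested, 2 were lower members, and all 9 were past the threshold as lower (5 without the replicate block). ADGRF1, an adhesion receptor, was at 56.4, 61.8 and 67.5 CPM in Par, 9.24, 14.7 and 13.1 in LM2, and 0.369, 0.177 and 0.431 in BrM2, and TRIM29 at 10.5, 5.13 and 6.4 CPM in Par, 0.0994, 0.0408 and 0 in LM2, and 1.18, 0.662 and 0.479 in BrM2.

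Transcription factors with the same direction in both sub-populations included TFAP2C, a factor of luminal and trophoblast cells, at 11.8, 11.2 and 9.31 CPM in Par, 82.9, 71.7 and 68.2 in LM2, and 47.7, 50 and 39.2 in BrM2. PRRX1, a mesenchymal homeobox factor, was at 0.368, 0.194 and 0.511 CPM in Par, 3.08, 2.98 and 4.94 in LM2, and 1.11, 2.03 and 3.02 in BrM2. FOXA1, a pioneer factor of luminal cells, had at most 1 count per Par library and reached 0.531 to 0.646 CPM in LM2 and 1.33 to 2.64 CPM in BrM2, a low level throughout. RUNX2, a Runt factor of bone cells, was lower at 59.5, 65.6 and 65 CPM in Par, 34.5, 57.1 and 53.1 in LM2, and 30.6, 42.3 and 31.1 in BrM2, with a narrow gap between the lowest Par and the highest LM2 library. Histone and DNA modifying enzymes split evenly, with 3 higher and 3 lower members of 50 tested. Over that list 10 were past the threshold as higher and 9 as lower, with a median change of -0.0017. The 3 higher members were DNA methyltransferases. DNMT1 was at 489, 500.3 and 380.0 CPM in Par, 725, 546 and 533 in LM2, and 832, 650.3 and 689 in BrM2. DNMT3A rose by 0.68 (95% interval 0.34 to 1.01) and DNMT3B by 0.92 (95% interval 0.66 to 1.18).

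The largest changes among the remaining members, by size or level, came from several lists or from none. SRGN, serglycin, was at 37.2, 33.9 and 36.9 CPM in Par, 299, 401 and 387 in LM2, and 248, 342 and 272 in BrM2. PLCB1, a phospholipase, was at 0.158, 0.29 and 0.118 CPM in Par, 10.4, 24.6 and 23.9 in LM2, and 6.05, 19.5 and 19.1 in BrM2. DUSP1, a phosphatase of MAP kinases, rose by 2.65 (95% interval 2.29 to 3.02) and INSYN2B by 2.08 (95% interval 1.77 to 2.39). Of 17 tested feedback inhibitors of MAP kinase signalling, DUSP1 was the 1 higher member, against 3 lower members. BCL2A1, an inhibitor of apoptosis, had at most 3 counts per Par library and lay at 0.497 to 0.98 CPM in LM2 and 2.88 to 4.64 CPM in BrM2. BMF, which promotes apoptosis, changed by -1.83 (95% interval -2.36 to -1.3). Of 16 tested BCL2 family apoptosis regulators, 2 were higher and 2 lower members, with 4 past the threshold as higher and 4 as lower. The unnamed genes ENSG00000261327 and ENSG00000259807 had 0 and at most 1 count per Par library, and lay at 3.29 to 11.6 and 5.02 to 6.31 CPM in LM2 and 1.81 to 3.54 and 1.81 to 3.02 CPM in BrM2.

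Losses of similar size were measured for LGALS12, a galectin, at 52.1, 27.4 and 33.6 CPM in Par, 0.0497, 0 and 0 in LM2, and 0.221, 0.0441 and 0.0479 in BrM2. TP53I11 had 0 counts in all LM2 libraries, at least 227-fold below Par with LM2 set to 3 counts per library, and lay at 1.81 to 4.72 CPM in BrM2 against 23.3 to 50.7 CPM in Par. RARRES2, the chemoattractant chemerin, was at 64.8, 36.5 and 26.1 CPM in Par, 1.14, 0.775 and 0.805 in LM2, and 0.664, 0.309 and 0.144 in BrM2. SERPINA1, a protease inhibitor, was at 63.3, 41.6 and 48 CPM in Par, 13, 8.2 and 5.25 in LM2, and 0.959, 0.441 and 0.527 in BrM2. CYP1B1, a cytochrome P450, was at 194, 196 and 179 CPM in Par, 22.4, 43 and 39.2 in LM2, and 12.1, 39.5 and 22.8 in BrM2. The lysosomal protease CTSD changed by -2.05 (95% interval -2.55 to -1.55), the actin-severing GSN by -2.35 (95% interval -2.8 to -1.91), OLFML2A by -2.17 (95% interval -2.45 to -1.89) and KIAA1217 by -2.12 (95% interval -2.31 to -1.92). The efflux pump ABCC3, also a target of the antioxidant factor NRF2, was at 113, 137 and 123 CPM in Par, 35.9, 32 and 34.3 in LM2, and 10.3, 7.24 and 8.96 in BrM2. It belonged with AKR1C3 (-1.85 (95% interval -2.13 to -1.58)) and AKR1C2 (-2.28 (95% interval -2.78 to -1.78), 45.5% shared stretches) to 4 lower and 0 higher members among 22 NRF2 targets. Also lower were ENSG00000227706 (-6.5), C6orf223 (-6.01), the protease ADAM28 (-5.32) and the cystatin CST1 (-4.75, 36.1% shared stretches).

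**Figure D3:**
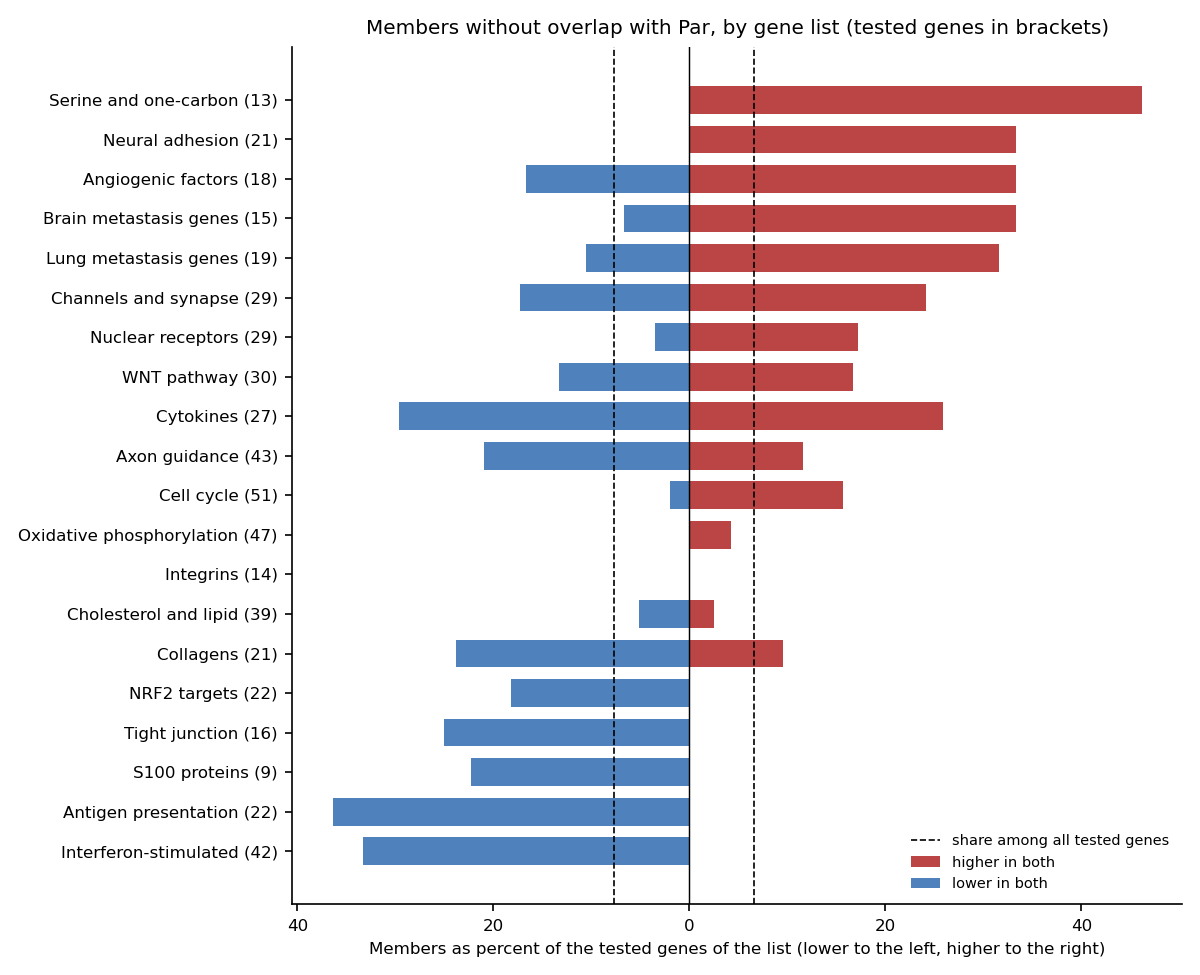
Members as a percentage of the tested genes of 20 lists, with lower members to the left and higher members to the right of 0; tested genes are in brackets and dashed lines mark the shares over all 13038 tested genes, 7.66% lower and 6.6% higher. Interferon-stimulated and antigen presentation genes extend farthest to the left, and serine and one-carbon genes farthest to the right.

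Of 47 subunits of oxidative phosphorylation, 2 were higher and 0 lower members, and of 39 cholesterol and lipid synthesis genes 1 was higher and 2 were lower. The latter had 20 genes past the threshold as lower with overlapping libraries for most, 2 past it as lower without the replicate block, and 22 lower members without replicate 1. Of 51 cell cycle genes, 8 were higher and 1 lower, with 14 and 4 past the threshold (3 and 0 without the replicate block) and a median of 0.14. No member was among 5 metallothioneins. Long non-coding RNAs were members somewhat more often than protein-coding genes, with 10.5% higher and 9.8% lower of 745, against 6.44% and 7.52% of 11777.

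How far the 2 sub-populations shared the same size of change is not fixed by the rule and was tested as BrM2 against LM2. Of the 1859 members, 697 differed at an adjusted p under 0.05 (37.5%, edgeR), the same share as over all genes tested (37.5%). Of those 697, 456 (65.4%) lay farther from Par in BrM2 and 241 in LM2. That share was not computed over the other tested genes, so it does not set the members apart from them. The 95% interval of the difference lay within a log2 of 1 for 608 of the 860 higher members and 601 of the 999 lower ones, and within 0.5 for 262 and 222. The median change was 0.83 in LM2 and 0.94 in BrM2 over higher members, and -1.06 and -1.16 over lower members.

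**Figure D4:**
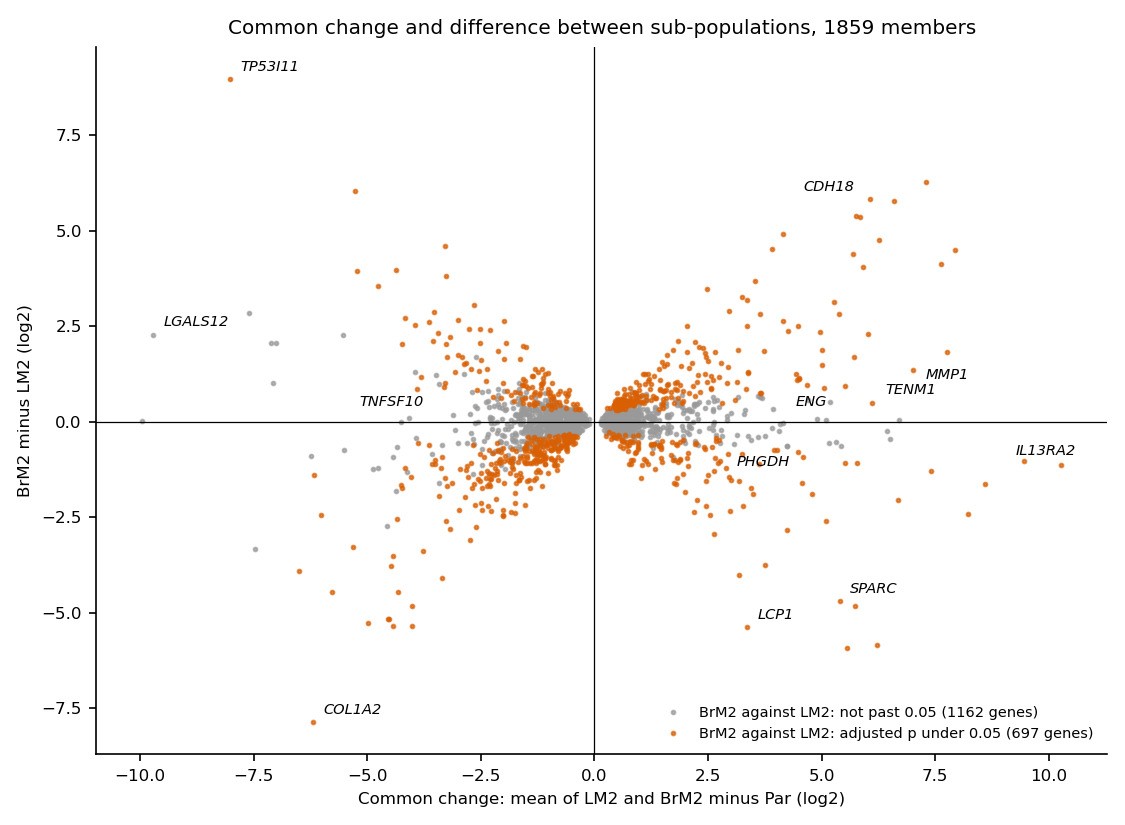
The common change (x axis, log2) and BrM2 minus LM2 (y axis, log2) of the 1859 members, each point a gene. The 697 genes in orange differ between the sub-populations; MMP1 and TENM1 lie slightly above 0, ENG and TNFSF10 on the zero line, and SPARC, LCP1 and COL1A2 far below it.

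The genes most alike in both sub-populations, by the interval closest around 0, included MPP4, a membrane scaffold, at 1.47, 1.26 and 1.26 CPM in Par, 23.2, 23.1 and 22.3 in LM2, and 19.9, 24.9 and 21.4 in BrM2. ENG and VIM were among them, with GPR137B, a lysosomal membrane protein, at a difference of -0.01 (95% interval -0.36 to 0.33), and ENSG00000166147, at 0.09 (95% interval -0.18 to 0.36). On the lower side they were MBTPS2, the protease that releases SREBP factors, with a difference of -0.0023 (95% interval -0.30 to 0.29), SH3KBP1, an adaptor of receptor endocytosis, with -0.05 (95% interval -0.30 to 0.19), MORC4 with -0.01 (95% interval -0.26 to 0.23), KLHL4 with -0.06 (95% interval -0.32 to 0.21) and FAM102A with -0.0031 (95% interval -0.31 to 0.30). MBTPS2 was at 40.6, 55.6 and 64.9 CPM in Par, 13.9, 24 and 25.4 in LM2, and 13, 25.9 and 24.6 in BrM2, and SH3KBP1 at 150.5, 172 and 168 CPM in Par, 78.1, 83.3 and 78.9 in LM2, and 65.9, 82 and 85.1 in BrM2. MBTPS2, SH3KBP1, MORC4 and KLHL4 are all on the X chromosome.

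At the other end stood members with the same direction and very unequal levels. CDH18, a cadherin of the nervous system, had at most 1 count per Par library, 0.0994 to 0.306 CPM in LM2 and 8.19 to 12.7 CPM in BrM2. FRMPD4, a scaffold of synapses, and AMOT, angiomotin, had at most 3 counts per Par library, 0.0816 to 0.306 and 0.163 to 0.69 CPM in LM2 and 4.21 to 9.98 and 10.8 to 13.6 CPM in BrM2. SPANXD, a cancer-testis antigen with near-identical relatives, had 0 counts in Par, 1 to 4 counts in LM2 and 7.59 to 8.56 CPM in BrM2, at least 50.4-fold above Par. In the opposite direction, LCP1, L-plastin, was at 1.94, 1.26 and 3.18 CPM in Par, 139.8, 136 and 147 in LM2, and 3.76, 3.22 and 3.26 in BrM2, and KCTD15 was at 7.05 to 8.84 CPM in LM2 and 0.0883 to 0.148 CPM in BrM2 against at most 1 count in Par. In such genes the smaller of the changes rests on few counts, and membership says only that no library crossed.

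Members were unevenly spread over chromosomes, with positions known for 92.8% of the genes tested. On chromosome 7, 100 of 574 tested genes were lower members (17.4%) and 21 higher (3.66%), and on the X chromosome 77 of 426 were lower (18.1%). The background over all tested genes was 7.66% lower. Within X, the window from 0 to 20 Mb (GRCh38.p14) held 35 lower members and 1 higher member of 58 genes tested, with a median change of -0.99 in LM2 and -1.02 in BrM2 over all 58. The next window, 20 to 40 Mb, held 9 lower members of 28, with medians of -0.62 and -0.63. MBTPS2 and SH3KBP1 lie in these windows, at chrX:21839617-21885423 and chrX:19533977-19887600. On chromosome 7, 23 of 70 genes were lower members from 120 to 140 Mb, 23 of 76 from 140 to 160 Mb and 19 of 76 from 60 to 80 Mb. Chromosome 13 held 28 higher members (12.6% of its tested genes) and 5 lower ones (2.24%). The median change over all its tested genes was 0.50 in LM2 and 0.0365 in BrM2, against -0.34 and -0.37 on chromosome 7 and -0.0737 and -0.38 on X. Neighbouring genes are not independent, and these shares are given with no test.

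**Figure D5:**
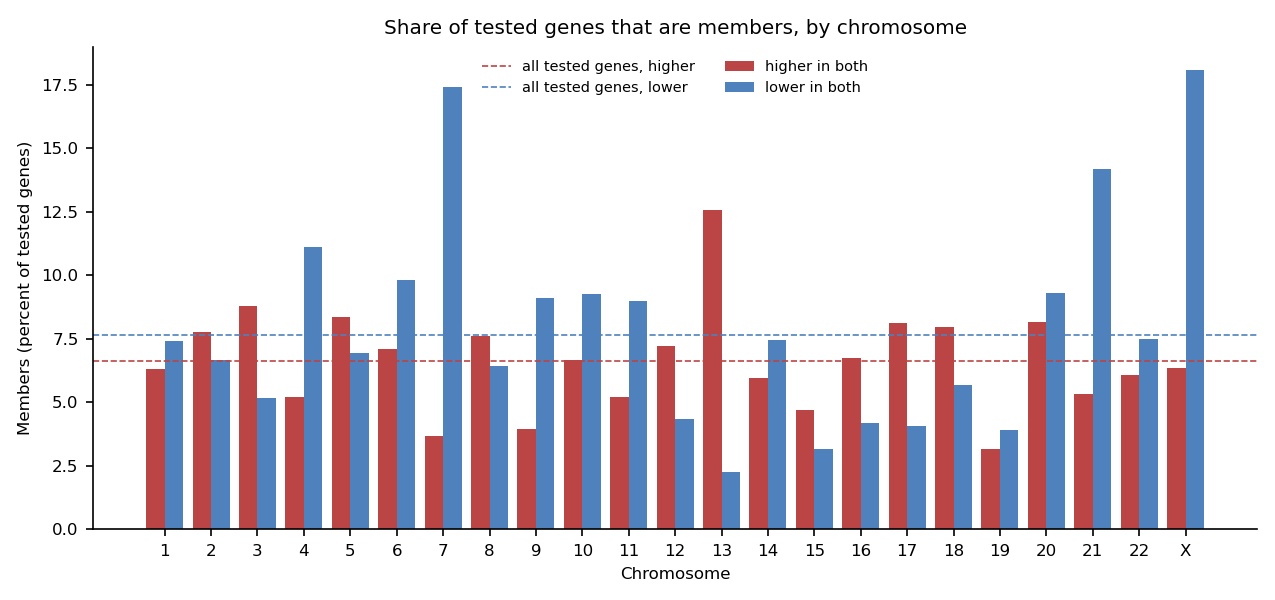
Higher (red) and lower (blue) members as a percentage of the tested genes of each chromosome, from 0, with dashed lines at the shares over all tested genes. Lower members stand farthest above their dashed line on chromosomes 7 (17.4%), 21 (14.2%) and X (18.1%), and higher members on chromosome 13 (12.6%), and several other chromosomes lie above a line by less.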

How the data were processed

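RNA was sequenced from Par, LM2 and BrM2 cells, 3 libraries per line. The authors made stranded mRNA libraries, used STAR 2.7.0 to align paired-end reads to hg38 and to count reads on genes, and deposited these counts without normalization. They also deposited a table of DESeq2 fold changes and adjusted p-values, which was not used. The strand counted is not given in the sources used here.

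Of 58887 rows, 3 repeated identifiers with identical counts were dropped to 1 copy each. A filter written after HTSFilter (100 thresholds from 1 to 200, loess span of 0.3, threshold 47.1) kept 13038 genes, which hold 99.6% to 99.8% of each library. Replicate numbers were taken as pairing the libraries. Deviations from the line means correlated at 0.23 or more in all 9 pairs of libraries of the same number and different lines. Between numbers 2 and 3 of different lines they correlated at 0.39 to 0.80. The values thus set replicate 1 apart but do not show that numbers 2 and 3 are paired. The common dispersion was 0.0207 with the replicate block and 0.110 without it. edgeR 4.0.16 (TMM, quasi-likelihood test, 2-sided, 3 lines and the replicate number as a block) gave the contrast of the mean of LM2 and BrM2 with Par, and BrM2 against LM2, with Benjamini-Hochberg adjustment over all genes tested. CPM are TMM-normalized, and 3 counts correspond to 0.112 to 0.219 CPM. The model was tested on simulated data. Intervals are at 95%. The p-values measure the spread between libraries of a line that remains after the replicate block, estimated over the 3 lines together. The spread between passages that the lines share by replicate number is taken out by the block.

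The members and gene lists were chosen with earlier results of these data known. Genes named are the study's own examples, the 10 largest rises and 10 largest falls among members past the threshold, first over a mean of 50 counts and then over a mean of 50 CPM, members of the lists, and the members most alike and most unlike between sub-populations; of these, 151 are named here. Of the 151, 37 shared over 5% of their 31-base stretches with transcripts of other genes (GENCODE on GRCh37, used for neighbours only) and 16 overlapped exons of another counted gene on the opposite strand, among them KRT7, CYP1B1, CTSD, CEMIP, HLA-DPA1, IFIT2, IFIT3, TENM1 and ENG. Positions and promoters came from RefSeq on GRCh38.p14. Alternatives were the model without the replicate block, DESeq2 1.42.0, other scalings and filters, and leaving out libraries. Other software was R 4.3.3, Python 3.11.15, pandas 2.3.3 and matplotlib 3.10.9.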

Additional observations from a re-analysis of the deposited data

Results flagged for a closer look

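Among the members named here, 88 had a change from Par that differed between BrM2 and LM2 in a direct test of the difference (edgeR's quasi-likelihood test, adjusted p under 0.05 over all 13038 genes). Over all tested genes 37.5% differed so. The values are BrM2 minus LM2 on the log2 scale. Where a sub-population or Par had few or 0 counts (TP53I11, CDH18, SPANXD, FRMPD4, AMOT, KCTD15, ROBO2, TENM2 and TENM4 among them), the fitted value depends on the prior count and is no bound.

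BrM2 was below LM2 by a difference beyond -3 for COL1A2 (-7.86), KCTD15 (-5.92), LCP1 (-5.37), ADAMTS14 (-5.36), MUC4 (-5.36), ADGRF1 (-5.28), SPARC (-4.69), ENSG00000227706 (-3.91), SERPINA1 (-3.77), ADAM28 (-3.29) and CLDN23 (-3.09). Differences between -3 and -1 were measured for IL1B (-2.60), LAMA4 (-2.45), C6orf223 (-2.44), BTC (-2.21), PDGFB (-2.20), FKBP10 (-2.05), OLFML2A (-2.03), ABCC3 (-1.96), CX3CL1 (-1.67), KRT7 (-1.50), ELF3 (-1.49), IFI27 (-1.46), S100A4 (-1.44), RARRES2 (-1.39), AKR1C3 (-1.34), ENSG00000259807 (-1.29), SYT12 (-1.27), HERC6 (-1.14), IL13RA2 (-1.13), GRIK2 (-1.09), HLA-F (-1.07), ENSG00000261327 (-1.02) and APOBEC3G (-1.01). Smaller negative differences were those of SEMA5A (-0.997), BMF (-0.99), DUSP1 (-0.95), IFIH1 (-0.94), PRRX1 (-0.83), PSAT1 (-0.79), KIAA1217 (-0.76), GBP2 (-0.75), IL6R (-0.73), SLITRK5 (-0.71), TFAP2C (-0.70), PGF (-0.62), B2M (-0.53), RUNX2 (-0.47), VEGFA (-0.42), STAT2 (-0.37) and ATF4 (-0.37).

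BrM2 was above LM2 by a difference beyond 3 for CST1 (3.55), TRIM29 (3.96), TENM2 (4.06), TENM4 (4.13), ROBO2 (4.75), AMOT (4.93), FRMPD4 (5.36), CDH18 (5.84), SPANXD (6.27) and TP53I11 (8.98). Differences between 1 and 3 were measured for EFEMP1 (1.01), PTGER4 (1.03), EPHB3 (1.07), MMP1 (1.35), AOX1 (1.47), RIMS2 (1.58), CLDN4 (1.70), FOXA1 (1.70), ST6GALNAC5 (1.82), AMPH (1.84), BCL2A1 (2.34), WNT5A (2.38), RNF43 (2.41), CEMIP (2.42) and SERPINB2 (2.84). Smaller positive differences were those of NRP2 (0.43), ROBO1 (0.49), GJA1 (0.49), TENM1 (0.50), CNTNAP1 (0.55), IFIT2 (0.57), DNMT3A (0.57), BST2 (0.63), DNMT3B (0.75), TENM3 (0.84), PTK7 (0.85) and CSF1 (0.93). For a lower member such as SERPINA1 a negative value is a greater distance from Par in BrM2, and for a higher member such as SPARC a smaller one. Groups of 3 libraries were not searched for outlying samples.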

How the results depend on the processing

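Without the replicate block, 1553 genes passed the threshold between the metastatic mean and Par instead of 5198, 1256 of the members did instead of 1788, and 256 members differed between BrM2 and LM2 instead of 697. With LM2 and BrM2 as 1 group and the replicate block, 1833 genes passed. Asking only for the same sign in all 6 differences within a replicate number gave 4582 genes instead of 1859. Leaving out libraries gave 1889 to 5473 members, 2733 to 5498 genes past the threshold, 1748 to 3942 members past it and 417 to 1259 members that differed between BrM2 and LM2. Of these, Par replicate 1 moved the members to 3078 and those that differed to 1114, Par replicate 3 moved the genes past the threshold to 3162, LM2 replicate 2 moved the members that differed to 456, and replicate 1 of all lines moved the members to 5473. Without replicate 3 of all lines, 2733 genes passed and 417 members differed. Fewer Par libraries make the rule easier to meet by construction, and otherwise the cause was not tested. DESeq2 with the block passed 5291 genes. Relative log expression size factors gave 1829 members, of which 1755 were among the 1859, and plain library totals gave 1902, of which 1501 were. Filtering with filterByExpr gave 2227 members, and no filter 2704.

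For the 151 genes named, 2810 of 2869 values under the alternatives kept direction and side of the threshold, 59 no longer passed and 0 reversed. These genes were chosen as members past the threshold in the same libraries. A reversed direction was thus hardly possible, and the 0 is no separate support. Of the 59, 35 belonged to the model with 1 metastatic group and 15 to the model without the replicate block. The others were MX2 without replicate 1 (adjusted p = 0.076), without replicate 3 (0.057) and without Par replicate 3 (0.10), MTHFD1 without replicate 3 (0.067) and without Par replicate 3 (0.061), VEGFA without replicate 3 (0.14) and without Par replicate 3 (0.055), and DNMT3A (0.056) and STAT2 (0.074) without replicate 3, all by edgeR. The counts for each gene list under other scalings, without the block and without replicate 1 were chosen after seeing the data. At this depth 41 higher members had every Par library at or under 3 counts, so that the size of their change is limited by counting error.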
